A study of Mus musculus with 6 samples.

Results

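The 33 genes described here are transcribed in the brain mainly by microglia, the resident macrophages of the tissue. They were taken from a list of microglia-enriched genes and matched by gene identifier to the count tables, which list 56923 genes. All 33 were found, and all 33 had enough fragments to stand among the 19084 genes tested. For the comparisons they were divided into 13 homeostatic genes (*Cx3cr1*, *P2ry12*, *P2ry13*, *Tmem119*, *Csf1r*, *Fcrls*, *Gpr34*, *Siglech*, *Selplg*, *Olfml3*, *Slco2b1*, *Tgfbr1* and *Sall1*), 13 activation genes (*Aif1*, *Ctss*, *Trem2*, *Tyrobp*, *Itgam*, *Itgb2*, *Laptm5*, *Ptprc*, *Cd68*, *Cd14*, *Fcgr3*, *Fcer1g* and *Ly86*), 3 genes of complement C1q (*C1qa*, *C1qb* and *C1qc*) and 4 regulators (*Spi1*, *Irf8*, *Inpp5d* and *Csf3r*). The division is one of convention, since resting microglia also transcribe the activation genes.

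RNA was measured by polyadenylated RNA sequencing of whole prefrontal cortex in 3 samples from mice that lack *Pla2g4e* constitutively (KO) and 3 from wild-type mice (WT). The product of *Pla2g4e* is a phospholipase of the cytosolic phospholipase A2 family that makes the precursors of N-acylethanolamines. Per the study's methods, the knockout is the *Pla2g4e* tm2a allele on a C57BL/6N-A tm1Brd background. Its gene trap carries LacZ and is meant to abolish the gene product. The study reported no Pla2g4e protein in the hippocampus of this line by Western blot, and no signal by immunostaining. The labels say no more of the WT samples than that they are wild type, the age and sex of these mice were not given in the sources used here, and the methods state that both sexes were used in the study.

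Microglia keep their surveying state through signals from neurons and other glia, among them the ligands of the receptors Csf1r, Cx3cr1 and Tgfbr1. The transcription factors PU.1 (gene *Spi1*), Irf8 and Sall1 set their identity. In injury and in neurodegeneration they lower homeostatic genes such as *P2ry12* and *Tmem119* and raise genes of phagocytosis, lysosomes and antigen presentation, partly through the receptor Trem2 and its adaptor Tyrobp. Complement C1q, made in the brain chiefly by microglia, tags synapses for removal.

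Promoters are shown first because *Spi1* was among the members with the lowest p-values. PU.1 binds a short purine-rich motif whose core is GAGGAA. RefSeq promoter windows on GRCm38.p6 were at hand for 24 of the 33 members, and the motif was searched on both strands of the 250 bases upstream of the start. It was present in 16 of the 24 members (66.7%) and in 25.9% of 27025 genes with such a window. The 6 stretches below come from members of several roles, and some of them share a role. They include *Aif1* and *Slco2b1*, 2 of the members lower in every KO library than in any WT library, and capitals mark GAGGAA or, where the motif lies on the opposite strand, its complement TTCCTC. Each is written 5′ to 3′ on the strand of its gene.
C1qc, chr4:136893057-136893152, minus strand: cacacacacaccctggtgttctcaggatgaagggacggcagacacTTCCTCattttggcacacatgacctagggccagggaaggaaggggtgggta
Ctss, chr3:95526577-95526672, plus strand: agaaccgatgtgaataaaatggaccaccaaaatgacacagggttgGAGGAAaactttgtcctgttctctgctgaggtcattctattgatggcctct
Trem2, chr17:48346316-48346400, plus strand: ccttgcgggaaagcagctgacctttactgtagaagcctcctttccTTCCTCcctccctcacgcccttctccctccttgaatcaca
Fcrls, chr3:87263618-87263713, minus strand: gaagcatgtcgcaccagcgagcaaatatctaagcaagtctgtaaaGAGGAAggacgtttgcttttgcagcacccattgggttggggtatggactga
Aif1, chr17:35176053-35176104, minus strand: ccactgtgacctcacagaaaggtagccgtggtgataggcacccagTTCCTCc
Slco2b1, chr7:99695985-99696059, minus strand: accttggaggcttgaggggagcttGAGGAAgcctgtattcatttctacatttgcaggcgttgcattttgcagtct

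The distance from the motif to the start differed widely among these genes, from 1 base in *Aif1* and 34 bases in *Trem2* to 187 bases in *C1qc* and 220 bases in *Slco2b1*. The longer form GAGGAAGT, which contains the core, was found in *C1qc* and *Inpp5d*, 2 of 24 members (8.33%), beside 2.79% of all genes. The composite element of PU.1 with an interferon regulatory factor, GGAA followed 2 bases later by GAAA and so sharing GGAA with the core, was found in 0 of 24 members and in 2.68% of all genes. The median log2 fold change between KO and WT was -0.04 in the 16 members with the core motif (12 below 0) and -0.06 in the 8 without it (5 below 0). For GAGGAAGT it was 0.04 in the 2 members with it and -0.07 in the 22 without it. These medians are descriptions, and no difference between members with and without a motif was tested.

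Library totals were 11792463 to 14594230 fragments, with 23297 to 24349 genes detected and 6.13% to 7.41% of fragments from mitochondrial genes. *Pla2g4e* itself was read first as a check of the labels, at 5.95, 8.12 and 7.97 CPM (TMM-scaled counts per 1000000) in KO and 7.84, 11.3 and 13.2 CPM in WT replicates 1 to 3. The log2 fold change, KO over WT, was -0.55 (SE 0.21, unadjusted p = 0.0205 and adjusted p = 0.635 in limma-voom). The library labelled WT replicate 1 lay inside the KO range, and the count does not separate exons before and after the trap, so KO and WT name the labels throughout. *Xist* was high in replicate 1 of either group, and Y-linked genes were detected only in the other 4 libraries. *Pla2g4e* was lower in KO on both sides of this split, without overlap in the 4 libraries with Y-linked expression (log2 fold change -0.60, unadjusted p = 0.0030 in limma-voom), and with the Y-linked covariate the unadjusted p-value was 0.0018 and the adjusted 0.243. The labels do not say whether the samples of a group came from separate mice or litters, and the p-values measure the spread between these libraries.

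The transcripts of all 33 genes were counted in every library, from 11 fragments of *Cd14* to 1305 fragments of *Csf1r*. To compare genes with one another, levels were divided by exon length and are given as FPKM (fragments per 1000 bases of exon per 1000000), as mean ± SD over the 6 libraries. *C1qa* (42.6 ± 5.99 FPKM), *Ctss* (41.7 ± 3.57 FPKM) and *C1qb* (36.8 ± 6.60 FPKM) stood at the top, and their ranges over the libraries overlapped. They were followed after a gap by *C1qc* (19.0 ± 2.45 FPKM), *Tyrobp* (16.2 ± 2.12 FPKM), *Csf1r* (15.04 ± 1.26 FPKM) and *P2ry12* (14.7 ± 1.31 FPKM). The ranges of these genes over the libraries also overlapped. A second gap divided them from *Cx3cr1* (10.3 ± 0.593 FPKM), and from there to *Slco2b1* (3.22 ± 0.147 FPKM) the range of each gene overlapped that of the next. Overlap of ranges leaves out that the genes were read in the same libraries. Within every library *C1qa* was above *C1qb*, and *C1qc* was above *Tyrobp*, *Csf1r* and *P2ry12*. At the bottom stood *Cd14* (0.676 ± 0.124 FPKM), *Irf8* (0.660 ± 0.0706 FPKM) and *Ptprc* (0.228 ± 0.0588 FPKM), which encodes the leukocyte phosphatase CD45. The 10 lowest genes, below *Slco2b1*, were activation genes and regulators, and none of them was homeostatic.

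**Figure D1:**
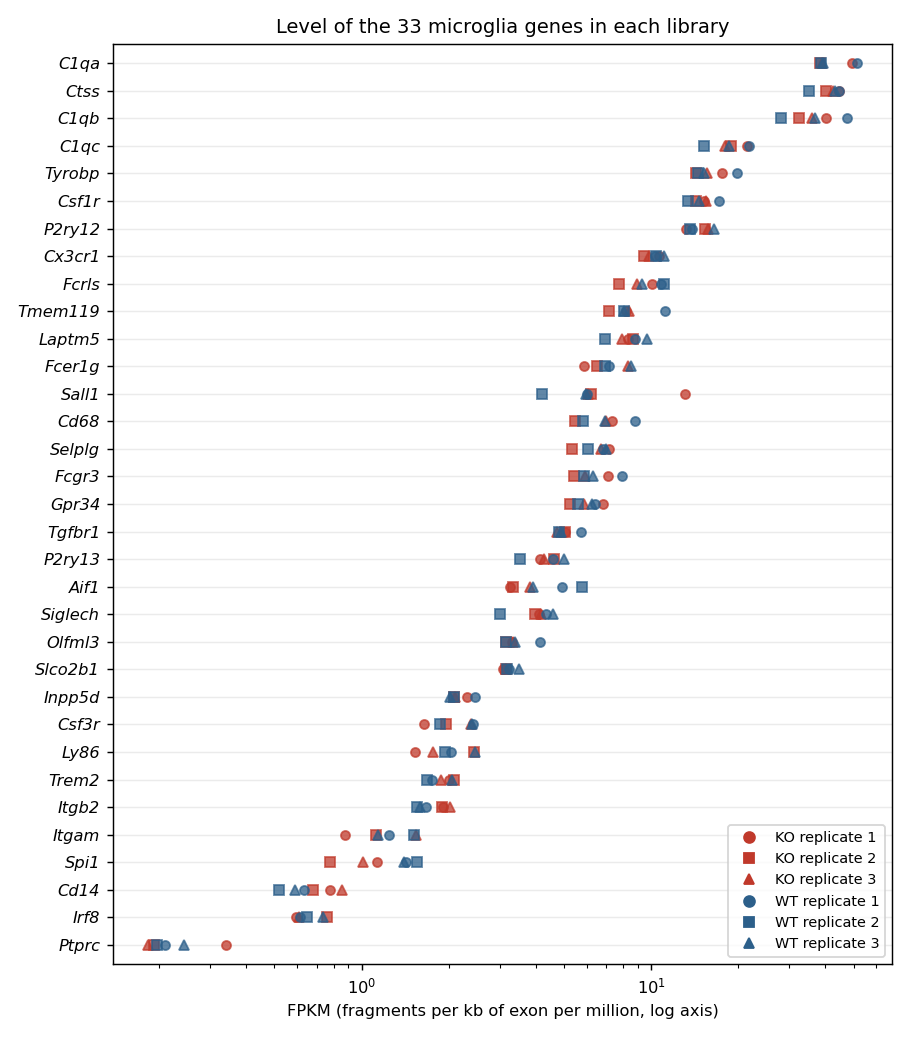
Level of each of the 33 microglia genes in the 6 libraries (FPKM, log axis), ordered by mean. Red marks are KO and blue marks WT, with a symbol for each replicate number. The genes span from 0.228 FPKM for Ptprc to 42.6 FPKM for C1qa, and for most genes the red and blue marks mix; the isolated red circle of Sall1 is KO replicate 1.

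KO against WT, 0 of the 33 genes passed the adjusted threshold of 0.05 in limma-voom, as 0 (0%) of all 19084 genes did. The adjusted p-values of the members ran from 0.635 to 0.997. Unadjusted p-values below 0.05 were found for 3 of 33 (9.09%), beside 7.82% of all genes tested. *Spi1* and *Aif1* were lower in KO, beside 3.44% of all genes, and *Sall1* was higher in KO, beside 4.38%. DESeq2 gave 1 member at this level, *Aif1*, beside 4.73% of all genes, and 0 after adjustment. The share of members was thus near that of the whole table by either tool.

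The identity of the members past this level moved with the libraries. Without WT replicate 2 there were 0 (4.13% of all genes), and without KO replicate 2 only *Sall1* (7.43%). With library quality weights *Spi1*, *Aif1* and *Fcrls* passed (7.66%), and in the 4 libraries with Y-linked expression *Spi1*, *Sall1* and *Fcrls* (3.77%). *Spi1*, *Aif1* and *Sall1* passed with the replicate number as a block (8.87%).

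The log2 fold changes were small. Their median over the 33 genes was -0.04, beside 0.01 over all genes tested, and 23 were below 0 and 10 above. That majority depended on the libraries used. Below 0 were 14 without the library labelled WT replicate 1 (median 0.02), 17 without KO replicate 2 (median -0.03) and 28 without WT replicate 2 (median -0.11). The 95% interval of the fold change lay within 1.5-fold in both directions for 25 of 33 members (75.8%), beside 58.9% of all genes, and within 2-fold for 30 of 33. In these 25 genes a change of more than 1.5-fold in the mean level thus lay outside the interval. In bulk tissue, fewer microglia and less RNA per cell cannot be told apart.

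**Figure D2:**
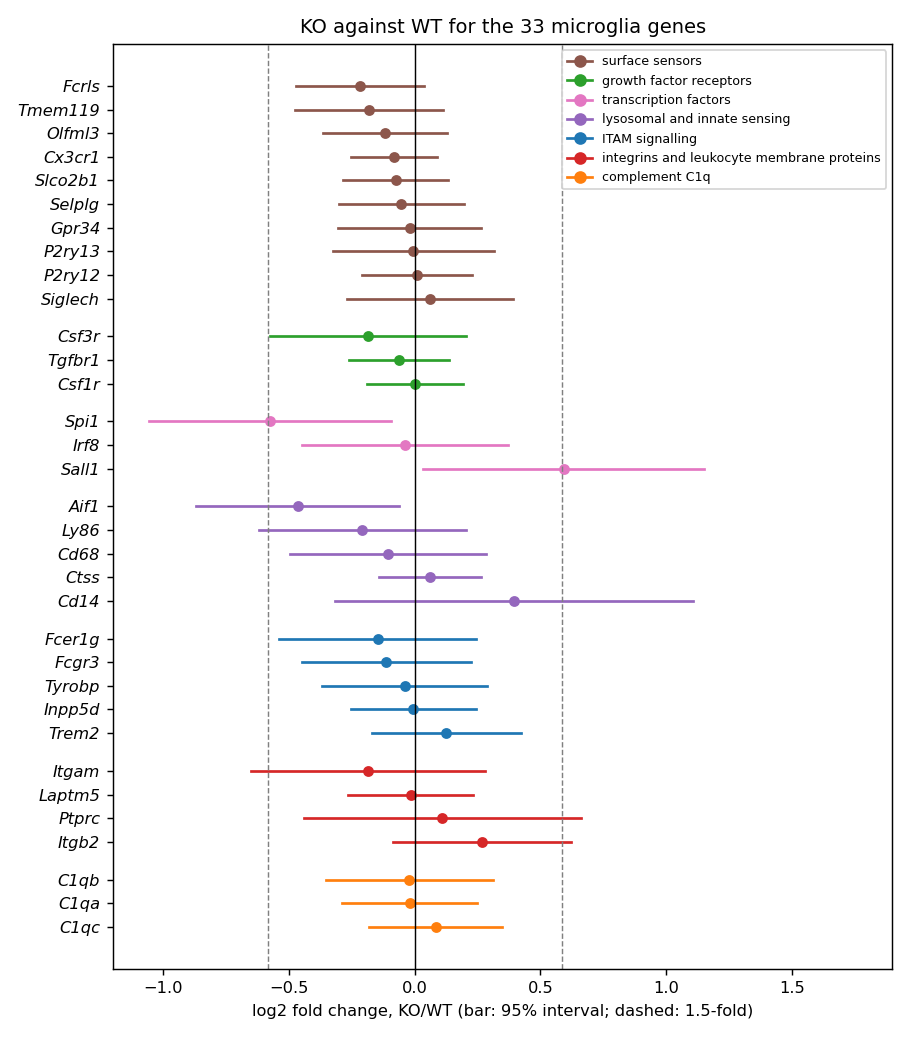
Log2 fold change, KO over WT, of the 33 genes grouped by role, with the 95% interval from limma-voom. Dashed lines mark 1.5-fold. Most points lie between -0.25 and 0.25, and the intervals of Spi1, Aif1 and Sall1 do not reach 0.

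The values of the 3 KO libraries and the 3 WT libraries did not overlap for 6 of the 33 genes (18.2%), beside 13% of all genes tested. *Sall1*, *Itgb2* and *Cd14* were higher in every KO library, as were 6.72% of all genes, and *Spi1*, *Aif1* and *Slco2b1* were lower, as were 6.29%. *Sall1* and *Spi1* are transcription factors, *Cd14* and *Aif1* genes of lysosomes and innate sensing, *Itgb2* an integrin and *Slco2b1* a surface sensor. They are described with their roles below.

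**Figure D3:**
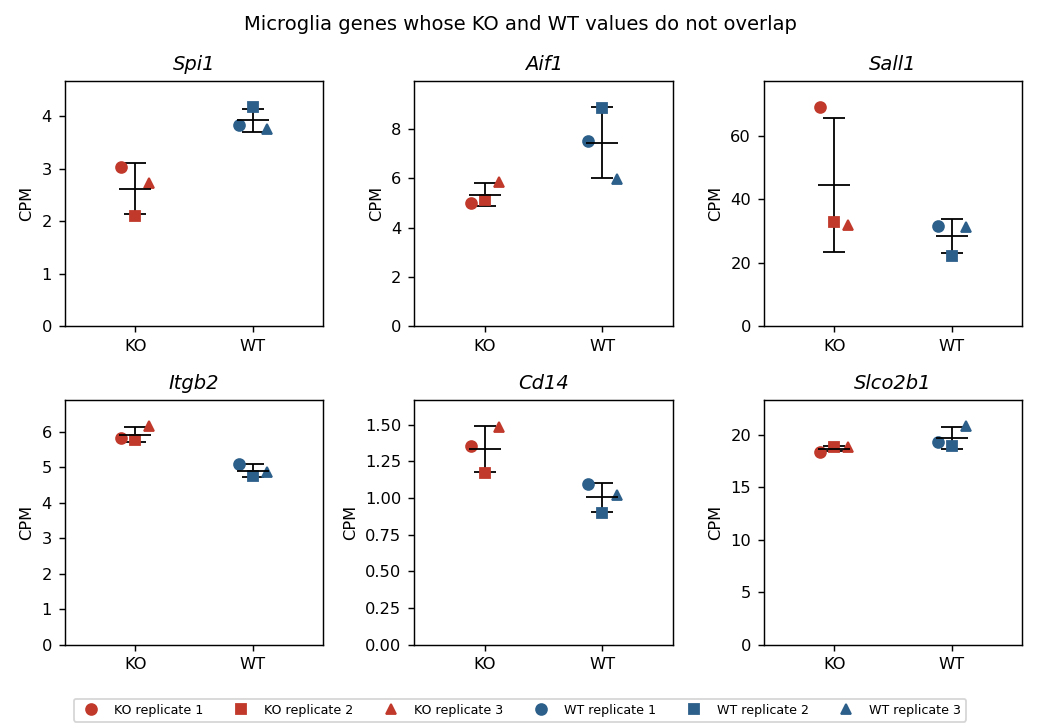
CPM in each library for the 6 members whose KO and WT values do not overlap, each axis starting at 0, with the mean and SD of the 3 libraries of a group. The gap between the groups is wide for Spi1 and Itgb2 and narrow for Slco2b1, Aif1 and Sall1, and the KO mean of Sall1 rests on 1 library.

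The surface sensors are the 10 receptors and surface or secreted proteins by which microglia are commonly recognised, and their levels hardly differed between the groups. *Cx3cr1*, the receptor of the neuronal chemokine fractalkine, was at 48.1, 42.5 and 44.3 CPM in KO replicates 1 to 3 and at 46.3, 46.7 and 50.1 CPM in WT. The groups overlapped, and the log2 fold change was -0.08 (SE 0.079, adjusted p = 0.777 in limma-voom). *P2ry12*, the ADP receptor that steers microglial processes, was at 33.7, 39.1 and 40.1 CPM in KO, against 35.4, 34.6 and 41.8 CPM in WT, with a log2 fold change of 0.01 (SE 0.10). The ranges of *P2ry12* in the 2 groups nearly coincided. Its neighbour *P2ry13*, a related nucleotide receptor, had a log2 fold change of -0.01 (SE 0.15).

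*Fcrls*, an Fc receptor-like protein of mouse microglia, showed the lowest p-value of the sensors. It was at 23.5, 18.01 and 20.8 CPM in KO, against 25.2, 25.9 and 21.7 CPM in WT, and KO replicate 1 lay above WT replicate 3. The log2 fold change was -0.22 (SE 0.12, unadjusted p = 0.0879 and adjusted p = 0.649 in limma-voom). The unadjusted p-value was 0.0232 without KO replicate 1 and 0.300 without KO replicate 2, so that it depended on the libraries used.

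*Slco2b1*, an organic anion transporter used as a microglial marker, was at 18.4, 18.8 and 18.8 CPM in KO, against 19.3, 18.9 and 20.9 CPM in WT. The groups did not overlap, but the nearest libraries differed by less than 0.1 CPM and the log2 fold change was -0.08 (SE 0.096, adjusted p = 0.838). The other sensors ranged in log2 fold change from -0.18 for *Tmem119*, a membrane protein that marks microglia against other macrophages, to 0.06 for *Siglech*, a sialic acid-binding lectin. Between them lay *Olfml3*, a secreted protein (-0.12), *Selplg*, the P-selectin ligand (-0.05), and *Gpr34*, a lysophosphatidylserine receptor (-0.02). The 95% intervals of all 10 sensors lay within 1.5-fold, and 8 of the 10 estimates were below 0.

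Of the growth factor receptors, *Csf1r* is required for microglial survival, *Tgfbr1* takes up the TGF-beta signal that keeps them homeostatic, and *Csf3r* is the receptor of granulocyte colony-stimulating factor. *Csf1r* was at 88.2, 82.2 and 89.6 CPM in KO, against 98.8, 77.4 and 84.8 CPM in WT. The WT libraries spread on both sides of the KO libraries, and the log2 fold change was 0.00084 (SE 0.088, adjusted p = 0.997). *Tgfbr1* was at 32.8, 32.8 and 30.9 CPM in KO, against 37.5, 31.5 and 32.0 CPM in WT, with a log2 fold change of -0.06 (SE 0.091). *Csf3r* had a log2 fold change of -0.19 (SE 0.18). The groups overlapped for all 3 receptors.

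Among the roles, the estimates of the 3 transcription factors spanned the widest range, from -0.57 to 0.59 in log2 fold change. Differences among the 3 were not tested. *Spi1* (ENSMUSG00000002111.9, chromosome 2, 90912735 to 90946101 on the plus strand of GRCm39) encodes PU.1, the master regulator of the myeloid lineage. It was at 3.04, 2.09 and 2.73 CPM in KO, against 3.84, 4.17 and 3.77 CPM in WT, from 25 to 51 fragments a library. All 3 KO libraries lay below all 3 WT libraries, with means of 2.62 ± 0.483 CPM (SD, n = 3) and 3.93 ± 0.217 CPM (SD, n = 3). Its log2 fold change was -0.57 (SE 0.22, 95% interval -1.05 to -0.09) and the limma-voom p-value 0.0230 unadjusted and 0.635 adjusted. It stayed between -0.71 and -0.44 over the 17 alternatives run. The unadjusted p-value was above 0.05 in DESeq2 (0.0640), without KO replicate 2 (0.0897) and without WT replicate 2 (0.0597).

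*Irf8*, the interferon regulatory factor that partners PU.1, was at 4.19, 5.36 and 4.30 CPM in KO, against 4.31, 4.58 and 5.18 CPM in WT. The groups overlapped across their whole range, with a log2 fold change of -0.04 (SE 0.19). Whether the fold changes of *Spi1* and *Irf8* differ was not tested.

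*Sall1* (ENSMUSG00000031665.8, chromosome 8, 89753863 to 89770790 on the minus strand of GRCm39) encodes a zinc finger repressor that among brain macrophages is held by microglia. It was at 69.1, 32.7 and 31.9 CPM in KO, against 31.7, 22.1 and 31.3 CPM in WT. KO replicate 1 stood alone at the top and WT replicate 2 alone at the bottom, while the remaining 4 libraries lay between 31.3 and 32.7 CPM. This gave a log2 fold change of 0.59 (SE 0.26) and the limma-voom p-value 0.0395 unadjusted and 0.635 adjusted. Without KO replicate 1 it was 0.20 (unadjusted p = 0.157), and without WT replicate 2 it was 0.42 (unadjusted p = 0.149). The unadjusted p-value was also above 0.05 in DESeq2 (0.111), without WT replicate 3 (0.0574), with library quality weights (0.0594) and with the filterByExpr filter of edgeR (0.0514). It was lowest with the Y-linked covariate (6.0e-04), with the replicate number as a block (9.9e-04) and without KO replicate 3 (0.0096).

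The same 2 libraries were the extremes for genes of the olfactory bulb, a list added after the data were seen (*Eomes*, *Tbx21*, *Doc2g*, *Cdhr1*, *Sp8*, *Th*, *Calb2* and *Lgr6*). Their summed level was 374 CPM in KO replicate 1, 91.2 and 62.7 CPM in KO replicates 2 and 3, and 101, 27.4 and 59.6 CPM in WT replicates 1 to 3. All 8 genes were highest in KO replicate 1 and lowest in WT replicate 2. *Cdhr1*, a cadherin of mitral and tufted cells, was at 112 CPM in KO replicate 1, 9.25 CPM in WT replicate 2 and 17.3 to 30.5 CPM in the others. *Sall1* is also transcribed outside microglia, and the part of the olfactory bulb genes in its result was not tested. Of the 12 other homeostatic genes, *Gpr34* and *Selplg* were also highest in KO replicate 1, and *P2ry13*, *Csf1r*, *Siglech* and *Olfml3* were also lowest in WT replicate 2. None of the 12 had both extremes in common with *Sall1*. Among members outside the homeostatic list, *Ctss* alone shared both. So did *Axl*, *Spp1* and *Igf1*, which are induced in reactive microglia, and some other microglia-enriched genes, such as *Cd53* and *Lyn*. Most tested genes of these lists did not. The order was thus not confined to olfactory bulb genes and *Sall1*.

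**Figure D4:**
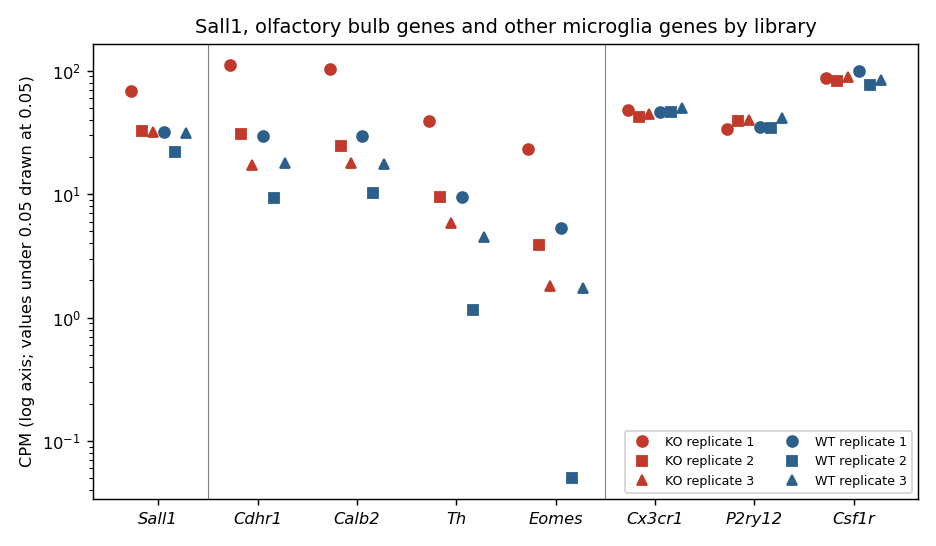
CPM in each library (log axis) of Sall1, of 4 olfactory bulb genes and of 3 other homeostatic microglia genes. Sall1 and the olfactory bulb genes are highest in KO replicate 1 and lowest in WT replicate 2, whereas the 6 libraries lie close together for Cx3cr1, P2ry12 and Csf1r. Values under 0.05 CPM are drawn at 0.05. Ctss, a microglia gene that is not drawn, has both extremes in common with Sall1.

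The complement C1q genes encode the 3 chains of the protein that starts the classical pathway, and they lie side by side on chromosome 4. *C1qa* was at 51.2, 40.0 and 40.5 CPM in KO, against 53.5, 40.1 and 40.8 CPM in WT. *C1qb* was at 43.5, 35.3 and 39.0 CPM in KO, against 51.5, 30.5 and 40.1 CPM in WT, and *C1qc* at 41.5, 36.3 and 34.7 CPM in KO, against 42.1, 29.3 and 35.8 CPM in WT. All 3 chains were highest in the library labelled WT replicate 1 and next in KO replicate 1, the 2 libraries without Y-linked expression. Within each group the spread between replicates exceeded the difference between the group means. Summed over the chains, the level was 111.6 to 136.2 CPM in KO, against 99.9 to 147.1 CPM in WT. The log2 fold changes were -0.02 for *C1qa* (SE 0.12), -0.02 for *C1qb* (SE 0.15) and 0.08 for *C1qc* (SE 0.12), and the 95% intervals of all 3 lay within 1.5-fold.

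The 5 genes of ITAM signalling encode Trem2, its adaptor Tyrobp, the Fc receptor chains Fcer1g and Fcgr3, and Inpp5d, the phosphatase SHIP1 that counters them. *Inpp5d*, the highest of them in CPM, was at 17.6, 15.8 and 16.0 CPM in KO, against 18.7, 15.8 and 15.4 CPM in WT. *Fcgr3* was at 12.3, 9.38 and 10.2 CPM in KO, against 13.8, 10.1 and 10.9 CPM in WT, and its reads may be shared with its close paralogue *Fcgr2b*, so this level is uncertain. For both genes replicate 1 was the highest library in either group, and the groups overlapped. *Trem2* had a log2 fold change of 0.13 (SE 0.14), *Tyrobp* of -0.04 (SE 0.15), *Fcer1g* of -0.15 (SE 0.18), *Fcgr3* of -0.11 (SE 0.15) and *Inpp5d* of -0.0048 (SE 0.11). None of the 5 had an unadjusted p-value under 0.05 in limma-voom, and all 5 intervals lay within 1.5-fold. The estimates of the receptor *Trem2* and of its adaptor *Tyrobp* lay on opposite sides of 0, each with an interval that includes 0.

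Among the integrins and leukocyte membrane proteins, *Itgb2* (ENSMUSG00000000290.14, chromosome 10, 77366086 to 77401542 on the plus strand of GRCm39) encodes the beta chain of complement receptor 3. It was at 5.81, 5.78 and 6.17 CPM in KO, against 5.10, 4.75 and 4.87 CPM in WT. The groups did not overlap, and the gap between the nearest libraries exceeded the SD of either group (KO 5.92 ± 0.217 CPM and WT 4.90 ± 0.177 CPM, n = 3 each). Those SDs were smaller than counting error alone would give (chi-square per degree of freedom within groups 0.09). The gap measured against them thus overstates the separation. Its log2 fold change was 0.27 (SE 0.16) and the limma-voom p-value 0.124 unadjusted and 0.677 adjusted, which borrows its spread from genes of like level. The estimate stayed between 0.24 and 0.31 over the 17 alternatives.

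Its partner *Itgam*, the alpha chain of the same receptor, went the other way in its estimate. It was at 4.39, 5.61 and 7.73 CPM in KO, against 6.27, 7.61 and 5.73 CPM in WT, with a log2 fold change of -0.19 (SE 0.21). The groups overlapped, and the KO libraries spanned the whole WT range. In the annotation, 68.7% of the exon bases of *Itgam* are shared with the gene model *Gm49368* on the same strand, and fragments there were not counted, so the level of *Itgam* is too low by an unknown amount. *Laptm5*, a lysosomal membrane protein of leukocytes, was at 31.6, 32.7 and 30.0 CPM in KO, against 33.2, 26.2 and 36.6 CPM in WT, with a log2 fold change of -0.02 (SE 0.11). *Ptprc* had a log2 fold change of 0.11 (SE 0.25). Its interval reached past 1.5-fold, with 92 fragments in KO replicate 1 and 42 to 57 in the other libraries.

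The genes of lysosomes and innate sensing included the largest negative estimate among the activation genes. *Aif1* (ENSMUSG00000024397.15, chromosome 17, 35389967 to 35395044 on the minus strand of GRCm39) encodes Iba1, the actin-bundling protein by which microglia are usually stained. It was at 5.002, 5.11 and 5.86 CPM in KO, against 7.53, 8.84 and 5.97 CPM in WT, from 61 to 108 fragments a library. The groups did not overlap, though WT replicate 3 lay only just above the KO libraries. Its log2 fold change was -0.47 (SE 0.18, 95% interval -0.87 to -0.06) and the limma-voom p-value 0.0265 unadjusted and 0.635 adjusted. It ranged from -0.62 without WT replicate 3 to -0.34 without WT replicate 2. The unadjusted p-value was above 0.05 without WT replicate 2 (0.112), without KO replicate 1 (0.0759), without KO replicate 2 (0.0617), without WT replicate 1 (0.0572) and in the 4 libraries with Y-linked expression (0.106).

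*Ctss*, the lysosomal protease cathepsin S, was at 60.4, 54.7 and 57.7 CPM in KO, against 60.3, 47.6 and 58.6 CPM in WT, with a log2 fold change of 0.06 (SE 0.093). *Cd68*, a lysosomal glycoprotein of phagocytes, was at 9.19, 6.87 and 8.75 CPM in KO, against 11.1, 7.28 and 8.71 CPM in WT, with a log2 fold change of -0.11 (SE 0.18). In both genes the groups overlapped and WT replicate 2 was lower than the other WT libraries. *Cd14*, the co-receptor for lipopolysaccharide, was at 1.35, 1.17 and 1.48 CPM in KO, against 1.10, 0.900 and 1.02 CPM in WT. Every KO library was above every WT library, but these values rest on 11 to 20 fragments a library. The log2 fold change was 0.39 (SE 0.33, adjusted p = 0.750), and its 95% interval of -0.32 to 1.11 was the widest of the 33. *Ly86*, the partner of the Toll-like receptor homologue Cd180, had a log2 fold change of -0.21 (SE 0.19).

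Homeostatic and activation genes were then set against each other in each library. For each gene the log2 CPM was taken as a deviation from its mean over the 6 libraries, and the deviations were averaged over each list. The homeostatic mean was 0.09, -0.10 and -0.02 in KO, against 0.11, -0.14 and 0.05 in WT replicates 1 to 3. The activation mean was 0.0042, -0.07 and 0.03 in KO, against 0.09, -0.09 and 0.04 in WT. Libraries that were high in one list tended to be high in the other, and the 2 extremes were the libraries labelled WT replicates 1 and 2.

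The balance, homeostatic minus activation, was 0.09, -0.03 and -0.04 in KO, against 0.02, -0.05 and 0.01 in WT. Its mean was 0.0053 ± 0.071 (SD, n = 3) in KO and -0.0053 ± 0.040 (SD, n = 3) in WT, a difference of 0.01 that lies well inside the spread of either group. The highest value, in KO replicate 1, came with *Sall1*. Without that gene the balance was 0.0093, -0.03 and -0.04 in KO, against 0.04, -0.01 and 0.03 in WT. Its mean was then -0.019 ± 0.025 (SD, n = 3) in KO and 0.019 ± 0.026 (SD, n = 3) in WT. This difference of -0.04 exceeded the SD of either group, though the groups overlapped, and it was not tested. The sign of the balance thus turned with 1 gene of 13. The ratio of the summed CPM of the 13 homeostatic genes to that of the 13 activation genes was 2.502, 2.27 and 2.32 in KO, against 2.33, 2.38 and 2.27 in WT.

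**Figure D5:**
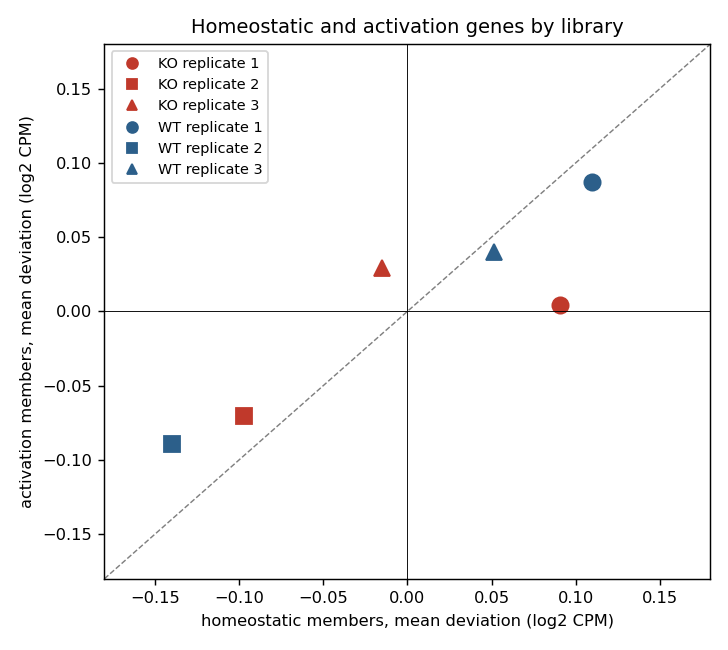
Mean deviation of the 13 homeostatic genes (x axis) and of the 13 activation genes (y axis) in each library, in log2 CPM from the mean of the 6 libraries. The dashed line marks equal deviation. Red KO and blue WT points lie along it without separating, with WT replicate 1 at the upper right and WT replicate 2 at the lower left.

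By list, the median log2 fold change was -0.05 in the homeostatic genes (9 of 13 below 0), -0.04 in the activation genes (8 of 13), -0.02 in C1q (2 of 3) and -0.11 in the regulators (4 of 4), beside 0.01 and 51.9% above 0 in all genes tested. Intervals within 1.5-fold were held by 12 of the 13 homeostatic genes, all but *Sall1*, and by 7 of the 13 activation genes, which were read at lower counts. The library labelled WT replicate 1 was the highest of the 6 for 12 of the 33 genes and the lowest for 0, whereas WT replicate 2 was the lowest for 12 and KO replicate 2 for 10. Summed over all members the level was 758, 662 and 693 CPM in KO, against 774, 631 and 716 CPM in WT, so that the WT libraries lay both above and below the KO libraries. The median SE of the log2 fold change was 0.147 for the members, beside 0.142 for all genes tested.

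Other genes of microglia and their surroundings were read from further lists, which like the members were chosen with earlier results of these data known. Of 27 further microglia-enriched genes, 14 had a log2 fold change above 0 and 13 below, with a median of 0.01, and 2 (7.41%) had an unadjusted p-value under 0.05, beside 7.82% of all genes, both lower in KO. First among them by p-value stood *Lgmn*, the lysosomal protease legumain (KO 83.5 ± 1.59 and WT 94.6 ± 2.51 CPM, log2 fold change -0.18, SE 0.064, unadjusted p = 0.0159). Its KO libraries lay below its WT libraries, and its adjusted p-value was 0.635.

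Of 21 genes induced in reactive microglia, 19 were tested, with a median log2 fold change of -0.02, 9 above 0 and 10 below. Unadjusted p-values below 0.05 were held by 1 of the 19 (5.26%), beside 7.82% of all genes. This was *Ctsb*, the protease cathepsin B, at 358, 352 and 369 CPM in KO, against 431, 426 and 386 CPM in WT (log2 fold change -0.20, SE 0.063, unadjusted p = 0.0073). It is transcribed by many cell types, and its direction is opposite to the induction for which it was listed. *H2-Aa*, of antigen presentation, was next (-0.57, SE 0.34, unadjusted p = 0.113). Of the 21 genes, 9 had a mean under 1 CPM, and how large a difference could be detected in them was not measured.

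Of 23 ligands and partners of the members, 21 were tested and 5 had a log2 fold change above 0, beside 51.9% of all genes, and 16 below, with a median of -0.10. Unadjusted p-values under 0.05 were found for 4 (19.0%), beside 7.82% of all genes, with 3 lower in KO (3.44% of all genes) and 1 higher (4.38%). *Tgfb1*, the ligand of Tgfbr1, was at 6.62, 5.61 and 6.33 CPM in KO, against 10.03, 7.53 and 7.53 CPM in WT (log2 fold change -0.42, SE 0.17, unadjusted p = 0.0288). *Cd200*, a neuronal ligand that restrains microglia, was at 70.5, 74.0 and 72.5 CPM in KO, against 87.4, 81.9 and 75.3 CPM in WT (log2 fold change -0.17, SE 0.074, unadjusted p = 0.0387). For both genes every KO library lay below every WT library. The other 2, named here after their values were seen, were *Cx3cl1*, the ligand of Cx3cr1 (-0.15, unadjusted p = 0.0428), and *C4b*, a complement component downstream of C1q (0.46, unadjusted p = 0.0445), and their groups overlapped. Of 8 neuron markers, 6 were also below 0 (median -0.08), and of 8 endothelial markers 7 (median -0.09). The other way went all 8 astrocyte, all 8 oligodendrocyte and all 8 striatal markers, which were above 0. The part of these cells in the ligand list was not tested.

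Markers of other macrophages and of blood leukocytes were read as well. Border macrophages share many of the 33 members. Their 10 markers summed to 36.0 to 41.4 CPM in KO, against 27.7 to 46.5 CPM in WT. These markers had a median log2 fold change of -0.04 and gave 0 unadjusted p-values under 0.05 in limma-voom, beside 7.82% of all genes. Their lowest library was WT replicate 2 and their highest WT replicate 1, as for the sum of the members. Their part in the members' order of libraries was not tested. The 12 markers of blood leukocytes all had a mean under 1 CPM, with 2 of them (*Ly6g* and *Retnlg*) at 0 in every library. The 12 summed to 0.743 to 1.72 CPM in KO, against 1.33 to 3.61 CPM in WT. The 3 that were tested were all below 0 (median log2 fold change -1.04). Of these, 0 had an unadjusted p-value under 0.05 in limma-voom, beside 7.82% of all genes.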

How the data were processed

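Per the labels, RNA of 6 prefrontal cortex samples (3 KO, 3 WT) was made into stranded libraries from polyadenylated RNA, and groups and replicate numbers were read from the titles. The authors deposited raw counts of fragments per gene, 1 table per sample, not normalized and not pooled. Per the submitters' processing notes, reads were checked with FastQC 0.11.8, aligned with STAR 2.7.9a and counted with featureCounts 1.6.0. Per the file headers, counting was paired-end with strand option 2 on GENCODE M31 (GRCm39), whereas the study's methods name an earlier build. The headers list no option for multi-mapping fragments or for those over more than 1 gene, so these were left uncounted, which lowers genes with near-identical copies or shared exons.

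Genes with at least 6 fragments in at least 1 library were tested, as in the study's methods, with TMM scaling in edgeR 4.0.16 and voom weights in limma 3.58.1 (R 4.3.3), KO against WT without covariates, two-sided, with Benjamini-Hochberg adjustment over all 19084 genes and a threshold of 0.05. Deviations of log2 CPM used a prior count of 0.5. As alternatives, edgeR with its quasi-likelihood test and DESeq2 1.42.0 were run, and limma was rerun under other scalings and filters, with quality weights per library, with a block for the replicate number, with a covariate for Y-linked expression, on the 4 libraries with Y-linked expression and without each library in turn. For the balance of the lists they were the C1q genes added, medians, a prior count of 2 and members of at least 5 CPM. The fits were tested on simulated data. Library totals were 11792463 to 14594230 fragments, which carry no molecular identifiers.

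All 33 members were named. Values in each library were given for members with an unadjusted p-value under 0.05, for those whose groups did not overlap and for the 2 of highest CPM in each role, and from other lists at most the 2 genes of lowest p-value. Values in each library of *Fcrls* and *C1qc*, and the genes *Cx3cl1* and *C4b*, were added to this rule after their values were seen, and 1 gene of the other microglia-enriched list is not reported here. The members, lists and alternatives were chosen with earlier results of these data known, and the olfactory bulb list was added after seeing the data. Lists were described by counts and medians, with no set test. Promoter windows came from RefSeq (GRCm38.p6) and matched 24 of 33 members by symbol. The promoters of *Gpr34*, *Spi1*, *Selplg*, *Itgb2*, *C1qa*, *Cd14*, *Tyrobp*, *Tmem119* and *Csf1r* were not analysed here.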

Additional observations from a re-analysis of the deposited data

How the results depend on the processing

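No member passed an adjusted p-value of 0.05 under any of the 17 alternatives. At unadjusted p-values below 0.05 there was 1 in DESeq2 and a range from 0 to 3 with a library left out, 1 without KO replicate 2 and 0 without WT replicate 2. It was 3 in the library quality weights, where *Fcrls* took the place of *Sall1*, and 3 in the 4 libraries with Y-linked expression (*Fcrls*, *Sall1* and *Spi1*). Over all genes the adjusted count was 1 in DESeq2, 23 with the Y-linked covariate, 3 in the 4 libraries with Y-linked expression and 0 to 1 with a library left out. The unadjusted count over all genes was 902 in DESeq2, 696 in the 4 libraries with Y-linked expression and 782 (without WT replicate 2) to 2239 (without WT replicate 3) with a library left out. It was 830 without KO replicate 1. With medians in place of means over the lists, the homeostatic minus activation balance, KO minus WT, was -0.0617, and it ranged from -0.0299 (without KO replicate 1) to 0.0353 with a library left out. It was 0.0585 with members of at least 5 CPM. The median log2 fold change was 0.0517 (activation genes), -0.0032 (homeostatic genes) and 0.0179 (all members) without WT replicate 1, and -0.1239, -0.107 and -0.107 without WT replicate 2. In the 4 libraries with Y-linked expression the median of the activation genes was 0.0076 and that of all members 0.0029, and the balance was -0.0157.

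The deviations of same-numbered libraries correlated across genes at 0.230, 0.0452 and -0.0158 for numbers 1 to 3. These values were read without a reference, and the libraries numbered 1 also share the absence of Y-linked expression. They therefore do not decide whether the replicate numbers pair the samples. With the replicate block, unadjusted p-values below 0.05 were found for 3 members and for 1693 of all genes, and adjusted ones for 0.

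Directions of small estimates were not stable. Of 578 alternative values for the members and *Pla2g4e*, 66 changed sign, in 20 genes, and 14 genes changed sign in none. Library totals as the scaling moved the median of all genes from 0.0085 to 0.0337 and that of the members alike, from -0.0393 to -0.0137, and the sign changed with that shift for *P2ry13* (0.0205), *Gpr34* (0.0057), *Laptm5* (0.0098), *C1qa* (0.005), *C1qb* (0.0044) and *Inpp5d* (0.0203), and with upper quartile scaling for *P2ry13* (0.0004) and *Inpp5d* (0.001). It changed with library quality weights for *P2ry13* (0.0336), *Laptm5* (0.0054) and *C1qb* (0.0067). In the 4 libraries with Y-linked expression it changed for *P2ry13* (0.0699), *Tgfbr1* (0.0029), *Tyrobp* (0.0111), *Itgam* (0.0076), *Laptm5* (0.0103), *Ptprc* (-0.226), *C1qb* (0.083), *Inpp5d* (0.0305) and *Csf3r* (0.0244). *Csf1r* was at -0.0056 in the quasi-likelihood test, -0.011 in DESeq2, -0.0045 with RLE scaling, -0.0026 with the filterByExpr filter, -0.0019 with the replicate block and -0.0021 with the Y-linked covariate. The causes were not tested.

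With a library left out, the log2 fold change crossed 0 for *P2ry12* (-0.0406 to 0.0932), *P2ry13* (-0.1487 to 0.0946), *Csf1r* (-0.079 to 0.0962), *Gpr34* (-0.1254 to 0.058), *Siglech* (-0.126 to 0.1725), *Selplg* (-0.1431 to 0.0615), *Tgfbr1* (-0.107 to 0.0191), *Ctss* (-0.0447 to 0.1236), *Tyrobp* (-0.1273 to 0.0985), *Itgam* (-0.3985 to 0.0315), *Laptm5* (-0.1512 to 0.084), *Ptprc* (-0.2029 to 0.2763), *Cd68* (-0.2455 to 0.0517), *Fcgr3* (-0.2327 to 0.0179), *C1qa* (-0.1425 to 0.1144), *C1qb* (-0.2101 to 0.1645), *C1qc* (-0.0494 to 0.21), *Irf8* (-0.1478 to 0.0314) and *Inpp5d* (-0.0626 to 0.0845).

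Of the 33 intervals of the fold change, 25 lay within 1.5-fold and the others reached past it. Counts were lowest for *Cd14* and *Spi1*, at 11 to 51 fragments a library. Counting error leaves out duplication during amplification. The libraries without Y-linked expression were 1 of each group and allow no comparison among themselves.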

Other observations

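Interferon-response genes were read beside the members, since microglia are among the cells that raise them in disease. Of 12 genes, 10 had a log2 fold change above 0, beside 51.9% of all genes, with a median of 0.34 beside 0.01 for all genes. Unadjusted p-values under 0.05 in limma-voom were held by 0 of the 12, beside 7.82% of all genes. *Bst2*, a membrane protein that tethers virions, had the lowest p-value and the opposite direction (log2 fold change -0.62, SE 0.30, unadjusted p = 0.0643). *Oasl2*, an oligoadenylate synthetase-like gene, was at 7.50, 5.61 and 4.45 CPM in KO, against 5.25, 2.05 and 4.87 CPM in WT (0.61, SE 0.32, unadjusted p = 0.0754). The mean deviation over the 12 genes was highest in KO replicate 1 (0.31) and lowest in WT replicate 2 (-0.34), the libraries that are also the extremes for *Sall1* and the olfactory bulb genes, and the part of either in this order was not tested.

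Of 12 inflammatory cytokines, chemokines and their enzymes, 7 were tested and 8 had a mean under 1 CPM. Of the 7, 4 had a log2 fold change above 0 and 3 below, with a median of 0.10. An unadjusted p-value under 0.05 in limma-voom was held by 1 of the 7 (14.3%), beside 7.82% of all genes. *Cxcl10*, a chemokine induced by interferon, was at 0.473, 0.419 and 0.234 CPM in KO, against 0.0784, 0 and 0.157 CPM in WT, with an unadjusted p-value of 0.0296 in limma-voom, from a handful of fragments a library. *Casp1*, the protease of the inflammasome, was at 3.45, 2.01 and 2.19 CPM in KO, against 1.96, 1.23 and 2.12 CPM in WT (log2 fold change 0.53, SE 0.32, unadjusted p = 0.117).

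Markers of other cells differed in the order of the libraries. The 8 astrocyte markers, like the C1q genes, had their highest mean deviations in WT replicate 1 (0.31) and KO replicate 1 (0.25), with all 8 log2 fold changes above 0 and 0 unadjusted p-values under 0.05. The 8 oligodendrocyte markers were also all above 0 (median 0.19), and the 8 striatal markers as well (median 0.36), led by *Penk* (unadjusted p = 0.0217). Of 8 neuron markers, 6 were below 0 (median -0.08), with *Nrgn* (unadjusted p = 0.0192) and *Snap25* (unadjusted p = 0.0351) lowest in p, and of 8 endothelial markers 7 (median -0.09), with *Slco1c1* lowest in p (unadjusted p = 0.0432). Unadjusted p-values under 0.05 were held by 0 of the 8 oligodendrocyte, 1 of the 8 striatal, 2 of the 8 neuron and 1 of the 8 endothelial markers, beside 7.82% of all genes. *Ttr*, of the choroid plexus, had a mean of 10.2 ± 14.4 CPM in WT and 0.472 ± 0.196 CPM in KO, with nearly all of it in WT replicate 2. The 5 erythrocyte genes summed to 35.6 to 61.8 CPM in KO, against 38.7 to 59.1 CPM in WT.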
